A study of Mus musculus with 6 samples.

Results

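The genes of the nuclear lamina, of the complex that links the nucleus to the cytoskeleton (LINC complex) and of the inner nuclear membrane were followed in mouse embryonic fibroblasts (MEF) that had squeezed through narrow pores. They are Lmna, Lmnb1, Lmnb2, Lbr, Emd, Sun1, Sun2, Syne1, Syne2 and Banf1, 10 of the 55335 genes counted, and they were picked by symbol for their place in the nuclear envelope. Among them, transcripts of both B-type lamins (Lmnb1 and Lmnb2) and of the lamin B receptor (Lbr) were lower in the cells that had passed, and those of the SUN protein gene Sun1 were higher. The calls of Lmnb2 and Lbr were lost in some of the other fits described below. Lmna, which codes for the A-type lamins, did not pass the test.

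Wild-type MEF, an adherent connective tissue cell carried as a culture and described as a cell line, were seeded above a transwell membrane with 3 μm pores, and the cells that had crossed it were collected after 15 h (Confine). Parental wild-type MEF served as Ctrl, and the culture medium given for MEF held serum and antibiotics. The paper's transwell method, given for another pore size, seeded cells without serum above medium with serum. Whether the MEF on 3 μm pores were seeded so is not stated there. Polyadenylated RNA was sequenced, and the table holds 3 columns of raw read counts for each group. The labels give the same transwell treatment text for Ctrl and Confine samples. The sources used here do not say whether Ctrl cells had been on a membrane. Passage through the pores, culture on the insert and any difference in serum therefore cannot be told apart. These sources also give no separate cultures for the replicates. Confine replicates 1 and 2 share every one of their 55335 values, so this library was used 1 time, called Confine replicate 2 below, and 3 Ctrl libraries were compared with 2 Confine libraries.

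Total counts ranged from 22287210 to 27853805 in Ctrl and were 32537550 and 27290138 in Confine, so that a floor of 3 counts equals 0.101 to 0.128 normalised CPM (counts scaled to a common library size). Mitochondrial genes took 0.689% to 0.806% of the counts. Across genes, log CPM correlated at 0.987 to 0.993 between Ctrl libraries, at 0.992 between the Confine libraries and at 0.956 to 0.963 between groups. Of 11 fibroblast markers, 8 were high enough to test, and no library held over 2 counts of Thy1 or Lum or over 27 of Dcn. The summed level of the 11 was 8745 to 9602 CPM in Ctrl and 15732 to 16509.5 CPM in Confine. Of 8 leukocyte markers 3 were tested, with Cd68 and Cd14 higher and Lyz2 lower in Confine and a summed level of 15.2 to 17.5 CPM against 34.5 to 39.6 CPM, while Ptprc, Adgre1 and Itgam had at most 2 counts. None of the 5 epithelial or the 5 endothelial markers was high enough to test, and of 6 skeletal muscle markers Des alone was, at 3.59 to 4.34 CPM in Ctrl and 9.05 and 12.8 CPM in Confine (log2 fold change 1.43, edgeR adjusted p = 0.000259). The part of these markers in the results was not tested.

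Lamins are intermediate filament proteins that form a mesh beneath the inner nuclear membrane. A-type lamins, made from Lmna, are known to set much of the stiffness of the nucleus, and B-type lamins stay anchored in the membrane by a lipid tail. SUN proteins span the inner membrane and bind nesprins of the outer membrane, and together they pass force from actin and microtubules to the lamina. Because the nucleus is the stiffest large organelle, these proteins are studied for their part in how a cell passes a narrow gap.

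Start-site sequences were available for 9 of the 10 genes, in 15 windows from RefSeq (GRCm38.p6) that run from 250 bases before to 50 bases after a start. They were searched on both strands for TTTGAA, the core of the cell cycle homology region (CHR) of many genes of dividing cells, and for CCAAT, the CCAAT box. These motifs do not overlap each other. The windows of Lbr, Lmnb2 and Sun1 are shown, the start of those genes that passed the test and have a window, with motif matches on either strand in capitals (TTCAAA and ATTGG are the reverse readings). The Lbr window is chr1:181842352-181842651 on the minus strand, the Lmnb2 window chr10:80918196-80918495 on the minus strand and the Sun1 window chr5:139200387-139200686 on the plus strand, each read 5′ to 3′ along the gene.
Lbr: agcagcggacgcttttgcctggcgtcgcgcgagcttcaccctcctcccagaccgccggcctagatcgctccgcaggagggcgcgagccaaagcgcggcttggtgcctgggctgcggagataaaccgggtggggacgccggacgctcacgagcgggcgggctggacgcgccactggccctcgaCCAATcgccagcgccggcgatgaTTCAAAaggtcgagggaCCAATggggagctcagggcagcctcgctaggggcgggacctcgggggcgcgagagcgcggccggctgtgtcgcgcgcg
Lmnb2: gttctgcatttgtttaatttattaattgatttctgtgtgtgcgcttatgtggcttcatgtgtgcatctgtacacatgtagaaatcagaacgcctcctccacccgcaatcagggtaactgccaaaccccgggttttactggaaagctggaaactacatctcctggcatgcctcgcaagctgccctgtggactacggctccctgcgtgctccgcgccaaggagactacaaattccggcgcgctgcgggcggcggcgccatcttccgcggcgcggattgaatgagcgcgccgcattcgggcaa
Sun1: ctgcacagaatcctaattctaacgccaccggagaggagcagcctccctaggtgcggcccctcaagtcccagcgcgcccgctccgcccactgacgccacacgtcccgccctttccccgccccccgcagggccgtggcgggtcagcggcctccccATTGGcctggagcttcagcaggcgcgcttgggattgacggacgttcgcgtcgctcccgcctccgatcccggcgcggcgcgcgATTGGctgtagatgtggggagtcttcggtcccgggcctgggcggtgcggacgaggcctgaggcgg

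In the Lbr window a CHR core lies 45 bases before the start, between CCAAT boxes at 68 and 28 bases before it. The Sun1 window holds no CHR core and has CCAAT boxes at 97 and 15 bases before the start. Neither motif is found in the Lmnb2 window shown. Among the 9 genes with a window (Lmnb1 has none), TTTGAA was found in windows of 2, Lbr and Sun2 (at 95 bases before the start), and CCAAT in windows of 6. Of 32851 mouse start-site windows, taken without a check of their length, 17.9% hold TTTGAA, 37.4% hold CCAAT and 6.95% hold both. These shares are per single window, while a gene was counted if any of its windows matched. The gene counts therefore cannot be set against these shares. Such a match is a description of the letters and not a binding site.

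After TMM normalisation, the quasi-likelihood test of edgeR was run over the 15881 genes that its filter on low counts let through, all 10 genes among them, and p-values were adjusted over all of these by the Benjamini-Hochberg method. At an adjusted p under 0.05, 1 of the 10 was higher and 3 were lower in Confine, against 12.8% of all tested genes higher and 10.2% lower. With the study's further cutoff of an absolute log2 fold change above 1.5, none of the 10 was called, against 4.89% of all genes higher and 3.11% lower. The Confine libraries lay entirely above the Ctrl libraries for 2 of the genes (Sun1 and Syne1) and entirely below for 5 (Lmnb1, Lmnb2, Lbr, Syne2 and Banf1), against 25.9% and 23.6% of all tested genes. The median log2 fold change was −0.45 over the 10 genes and −0.0021 over all tested genes. In bulk RNA, a change within cells, a change in which cells were collected and less RNA per cell cannot be told apart.

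**Figure D1:**
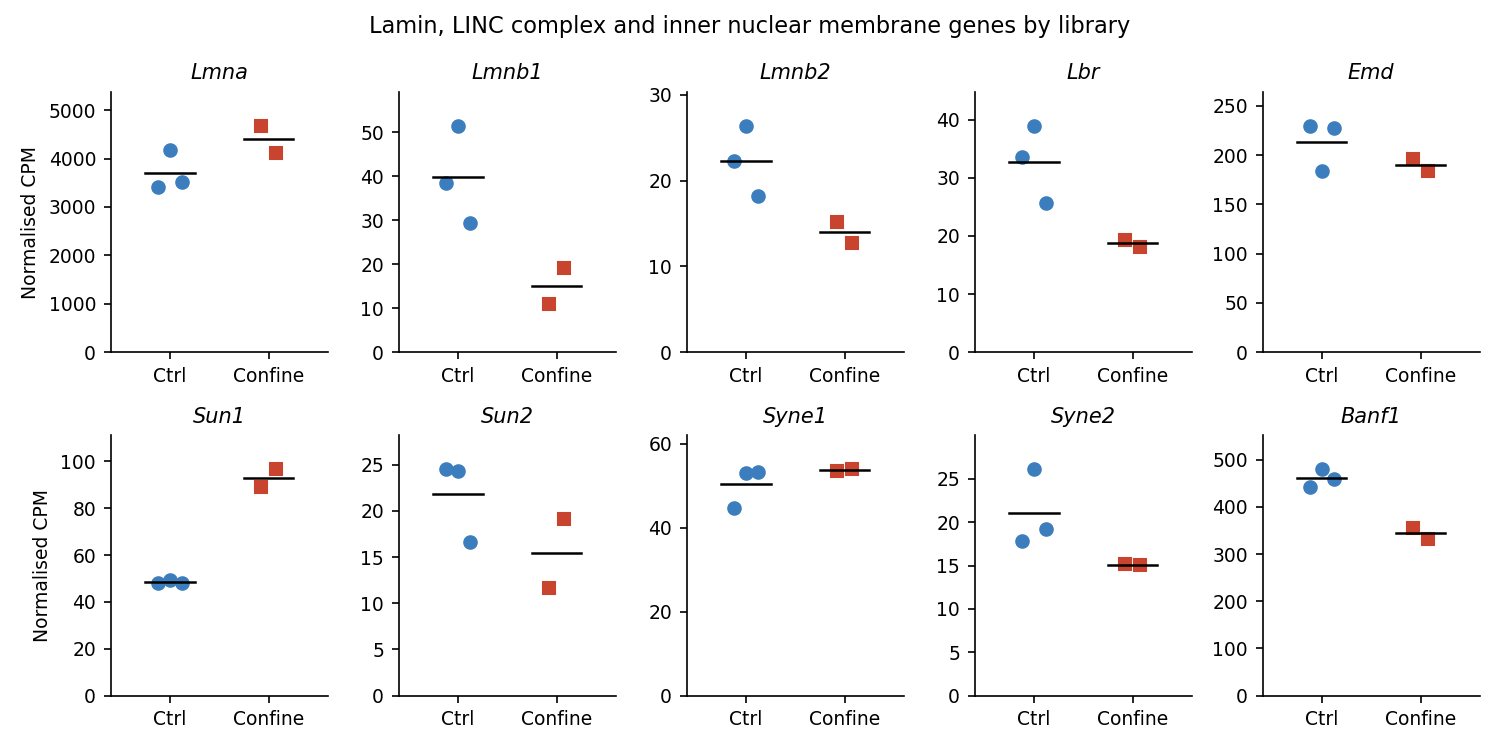
Normalised CPM (vertical axes, each from 0) of the 10 genes in each library, with Ctrl as circles (3 libraries), Confine as squares (2 libraries) and the group mean as a line. The Confine libraries of Sun1 lie at 88.9 and 96.5 CPM against 48.1 to 49.2 CPM in Ctrl, and those of Lmnb1, Lmnb2 and Lbr lie below every Ctrl library.

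Lmna (chr3:88480147-88509956, minus strand) was by far the most abundant of the 10. Its level was 3412, 4175 and 3521 CPM in Ctrl replicates 1 to 3 and 4673 and 4122 CPM in Confine replicates 2 and 3. The lower Confine library lies within the Ctrl range, so the groups overlap. The log2 fold change was 0.25 (SE 0.18, 95% interval −0.13 to 0.62, edgeR adjusted p = 0.356), and the interval's upper end lies well under the 1.5 cutoff. Counts per gene do not separate lamin A from lamin C, the major products of Lmna.

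Lmnb1 (chr18:56707813-56753424, plus strand), the gene of lamin B1, had the largest absolute fold change of the 10. It was at 38.5, 51.5 and 29.4 CPM in Ctrl and at 11.0 and 19.1 CPM in Confine, from 327 to 1362 counts. Every Confine library lies below every Ctrl library, and the means were 39.8 ± 11.1 (SD, n = 3) and 15.1 ± 5.69 CPM (SD, n = 2). Its log2 fold change was −1.40 (SE 0.26, 95% interval −1.95 to −0.86, edgeR adjusted p = 0.000557). The Confine libraries differ in depth of the decrease, with log2 fold changes of −1.06 when Confine replicate 2 was left out (edgeR adjusted p = 0.0407) and −1.85 when Confine replicate 3 was left out (edgeR adjusted p = 0.00156).

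Lmnb2 (chr10:80901203-80918245, minus strand), the gene of lamin B2, was at 22.3, 26.4 and 18.2 CPM in Ctrl and at 15.2 and 12.7 CPM in Confine. The groups do not overlap, but the highest Confine library is close to the lowest Ctrl library. Its log2 fold change was −0.67 (SE 0.21, 95% interval −1.12 to −0.23, edgeR adjusted p = 0.0275). The call was lost without Confine replicate 2 (edgeR adjusted p = 0.0908), Confine replicate 3 (0.267), Ctrl replicate 1 (0.0645) or Ctrl replicate 2 (0.0502). It was also lost with a replicate block that takes the repeated library as number 2 (edgeR adjusted p = 0.0950), while the direction stayed the same in all of these fits. Transcripts of Lmnb2 share stretches of at most 102 bp with transcripts of 62 other genes, so a small part of its reads may be ambiguous.

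Lbr (chr1:181815335-181843046, minus strand) codes for a receptor of the inner nuclear membrane that binds B-type lamins and heterochromatin and is also a sterol reductase. It was at 33.5, 38.9 and 25.7 CPM in Ctrl and at 19.4 and 18.1 CPM in Confine. The Confine libraries were close to each other and below the whole Ctrl range, with means of 32.7 ± 6.64 (SD, n = 3) and 18.8 ± 0.858 CPM (SD, n = 2). Its log2 fold change was −0.80 (SE 0.21, 95% interval −1.24 to −0.37, edgeR adjusted p = 0.00794). With 1 Confine library left out the decrease was of like size but did not pass (edgeR adjusted p = 0.0741 without Confine replicate 2 and 0.115 without Confine replicate 3). The number of the 10 genes that were lower was then 1, Lmnb1, in either case. On the opposite strand 440 bp of exon are shared with Dnah14, which had a mean of 3.4 counts.

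Emd (chrX:74254687-74261548, plus strand) codes for emerin, an inner membrane protein whose LEM domain binds the chromatin protein BAF. It was at 229, 184 and 227 CPM in Ctrl and at 196 and 184 CPM in Confine. The groups overlap, and the log2 fold change was −0.17 (SE 0.18, 95% interval −0.55 to 0.21, edgeR adjusted p = 0.564). Transcripts listed under Emd share 662 bp at 96.7% identity with those of Eif1, a translation initiation factor with a mean of 22692 counts, so the reads of Emd are uncertain. Eif1 had a log2 fold change of 0.15 (edgeR adjusted p = 0.588).

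Banf1 (chr19:5364638-5367168, minus strand) codes for BAF itself, a small protein that bridges DNA to LEM domain proteins at the envelope. Its level was 442, 479 and 460 CPM in Ctrl and 356 and 333 CPM in Confine. All Confine values lie below all Ctrl values, but the log2 fold change of −0.42 (SE 0.17, 95% interval −0.79 to −0.05) did not pass the test (edgeR adjusted p = 0.0965). DESeq2 gave an adjusted p of 0.0426 for a log2 fold change of −0.43. Banf1 shares 428 bp of exon with Eif1ad on the opposite strand (mean of 2192 counts against 11044 of Banf1), and whether the counting used the strand is not given in the sources used here. Eif1ad had a log2 fold change of −0.44 (edgeR adjusted p = 0.103).

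**Figure D2:**
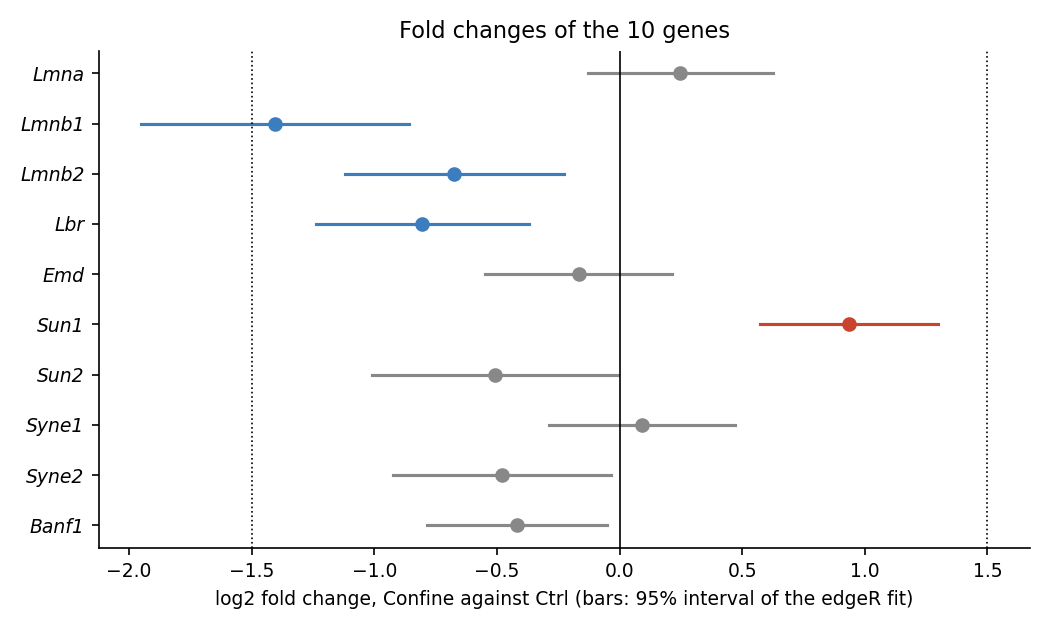
Log2 fold change of Confine against Ctrl (horizontal axis) of the 10 genes, with the 95% interval of the edgeR fit as bars and the 1.5 cutoff as dotted lines; blue marks a decrease and red an increase at an adjusted p under 0.05. Lmnb1 at −1.40, Lbr at −0.80 and Lmnb2 at −0.67 are blue, Sun1 at 0.94 is red, and the interval of Lmnb1 is the only one that reaches a cutoff.

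Sun1 (chr5:139200637-139249840, plus strand), a SUN protein of the inner membrane, was the only gene of the 10 that passed the test as higher. It was at 48.1, 49.2 and 48.1 CPM in Ctrl and at 88.9 and 96.5 CPM in Confine, or 1.91 times the Ctrl mean. The Ctrl libraries lie close together, and the distance to the lower Confine library is far larger than the spread in either group (SD 0.668 and 5.37 CPM). Its log2 fold change was 0.94 (SE 0.17, 95% interval 0.57 to 1.30, edgeR adjusted p = 0.000557), and it passed in all 15 other fits.

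Sun2 (chr15:79724070-79742536, minus strand), the partner SUN protein, was at 24.5, 24.3 and 16.7 CPM in Ctrl and at 11.7 and 19.1 CPM in Confine. Confine replicate 3 lies above Ctrl replicate 3, so the groups overlap. The log2 fold change was −0.51 (SE 0.24, 95% interval −1.01 to −0.0047, edgeR adjusted p = 0.142). The value moved with the library left out, and it was −0.19 without Confine replicate 2 (edgeR adjusted p = 0.741), −0.91 without Confine replicate 3 (edgeR adjusted p = 0.0667) and −0.69 without Ctrl replicate 3, which passed (edgeR adjusted p = 0.0342).

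The nesprins Syne1 (chr10:5020917-5551482, minus strand) and Syne2 (chr12:75818134-76110926, plus strand) code for the giant outer membrane partners of the SUN proteins. Syne1 was at 44.8, 53.1 and 53.2 CPM in Ctrl and at 53.4 and 53.8 CPM in Confine. Its groups do not overlap, but the Confine values lie just above those of Ctrl replicates 2 and 3, and the log2 fold change was 0.09 (SE 0.18, 95% interval −0.29 to 0.47, edgeR adjusted p = 0.771). Syne2 was at 17.8, 26.1 and 19.2 CPM in Ctrl and at 15.1 and 15.0 CPM in Confine. Its log2 fold change of −0.48 (SE 0.21, 95% interval −0.92 to −0.03) did not pass (edgeR adjusted p = 0.116), and was −0.30 without Ctrl replicate 2. Both genes make many isoforms, some without the actin-binding end, and these counts do not separate them.

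Levels were compared between genes as CPM per kilobase of annotated exon, on which the order in Ctrl was Lmna (634 ± 70.7, SD, n = 3), Banf1 (308 ± 12.5) and Emd (84.8 ± 10.3), followed at a distance by Lmnb1 (13.4 ± 3.74). Then came Lbr (6.88 ± 1.39) and Sun1 (6.38 ± 0.0879), whose libraries overlap, Lmnb2 (5.20 ± 0.954) and Sun2 (4.03 ± 0.825), which overlap too, and Syne1 (1.24 ± 0.119) and Syne2 (0.787 ± 0.166). In Confine, Sun1 (12.2 ± 0.708, SD, n = 2) stood next after Emd, above Lmnb1 (5.09 ± 1.92) and Lbr (3.94 ± 0.180), which overlapped. Lmnb2 and Sun2 overlapped in Confine as well, and Lmna, Banf1 and Emd kept the first places. Exon length counts every annotated isoform (40491 bp for Syne1 and 26726 bp for Syne2), so levels of the nesprins are understated wherever short isoforms make up the reads. The levels of Emd and Banf1 are uncertain too, because of the sequence they share with Eif1 and Eif1ad.

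Ratios within a library do not depend on how libraries were scaled. The ratio of Lmna to the sum of Lmnb1 and Lmnb2, in counts per kilobase, was 32.1, 30.4 and 42.5 in Ctrl and 110 and 74.9 in Confine. All Confine values lie above all Ctrl values, 2.62-fold higher on the log2 mean. The ratio of Lmna to Lmnb1 alone was 45.0, 41.2 and 60.7 against 215 and 109, a 3.18-fold difference. Both differences have an exact two-sided permutation p = 0.1, the smallest that 3 against 2 libraries allow, so the design cannot reach 0.05.

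The balance within the other pairs was measured the same way. Sun1 to Sun2 was 1.40, 1.44 and 2.06 in Ctrl and 5.44 and 3.60 in Confine, 2.75-fold higher with no overlap (exact permutation p = 0.1). Syne1 to Syne2 was 1.66, 1.34 and 1.83 against 2.33 and 2.36, 1.47-fold higher with no overlap (exact permutation p = 0.1). The ratio of Emd to Lbr was 12.9, 8.93 and 16.7 against 19.2 and 19.2, 1.54-fold higher (exact permutation p = 0.2). The ratio of Lmnb1 to Lmnb2, added after the values had been seen, was 2.49, 2.82 and 2.34 against 1.05 and 2.17, a log2 difference of −0.75 (exact permutation p = 0.1) that was −0.23 without Confine replicate 2 and −1.27 without Confine replicate 3. With 6 ratios compared, none passes after Benjamini-Hochberg adjustment, since none passes before it.

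**Figure D3:**
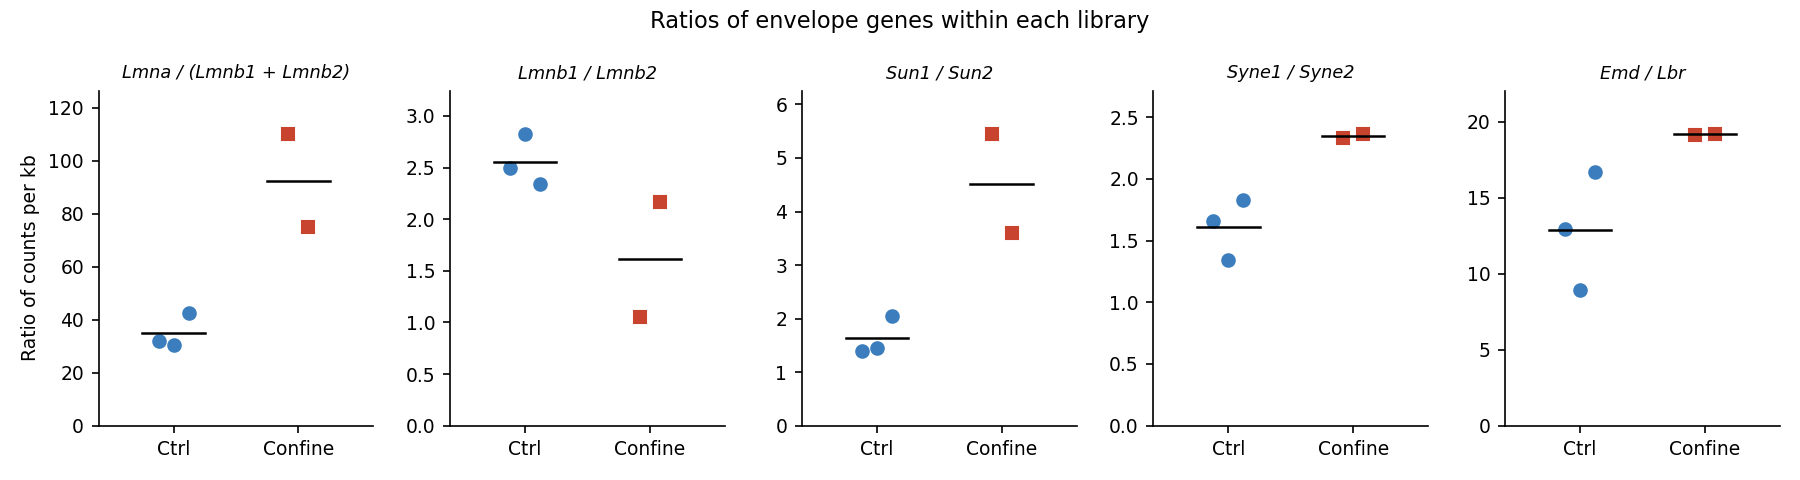
Ratios of counts per kilobase within each library (vertical axes, each from 0), with Ctrl as circles, Confine as squares and the mean as a line. Lmna to the B-type lamins lies at 30.4 to 42.5 in Ctrl and at 74.9 and 110 in Confine, and Sun1 to Sun2 at 1.40 to 2.06 and at 3.60 and 5.44.

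Of 35 other genes of the nuclear envelope, 31 were tested, of which 1 was higher and 5 were lower in Confine, with a median log2 fold change of −0.03. Over all tested genes 12.8% were higher and 10.2% lower, so the lower calls are near the share of all genes and the higher ones below it. The gene that rose was Plec, which codes for plectin, a cytolinker that ties nesprins to intermediate filaments (2471, 1655 and 2425 CPM in Ctrl and 5055 and 3342 CPM in Confine). Its log2 fold change was 0.94 (SE 0.21, edgeR adjusted p = 0.00318), and without Confine replicate 2 the number of genes higher was 0. Of 6 tested cytoskeletal partners of the LINC complex, Plec alone passed the test, and Macf1, Dst, Fhod1, Kif5b and Klc1 had log2 fold changes between −0.05 and 0.22.

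Of 10 tested LEM domain and inner membrane genes, 3 were lower. Tmpo, which codes for the lamina-associated polypeptides LAP2, was at 57.0, 73.0 and 46.0 CPM in Ctrl and at 29.7 and 35.5 CPM in Confine (log2 fold change −0.85, SE 0.21, edgeR adjusted p = 0.00656). Nrm, which codes for nurim, was at 79.3, 62.4 and 80.0 against 38.2 and 52.3 CPM (−0.71, SE 0.20, edgeR adjusted p = 0.0156). Ankle1, a LEM domain nuclease, had the largest difference of the list, with 45.2, 12.4 and 33.7 CPM in Ctrl and 3.48 and 3.85 CPM in Confine (−3.05, SE 0.39, edgeR adjusted p = 1.4e-05), and its Ctrl libraries varied widely.

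Both kinases that release BAF from DNA and LEM proteins were lower. Vrk1 was at 37.2, 34.1 and 36.8 CPM in Ctrl and at 18.9 and 19.9 CPM in Confine (log2 fold change −0.89, SE 0.19, edgeR adjusted p = 0.00152), and Vrk2 at 13.2, 7.18 and 10.6 against 5.20 and 5.88 CPM (−0.90, SE 0.27, edgeR adjusted p = 0.0197). None of the 6 torsin genes, 5 prelamin processing genes or 2 other tested SUN and nesprin genes passed. Zmpste24, the protease that matures lamin A, had a log2 fold change of −0.51 (edgeR adjusted p = 0.0596). The number of the 31 genes that were lower was 2 without Confine replicate 2, 3 without Ctrl replicate 1 and 9 without Ctrl replicate 2.

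**Figure D4:**
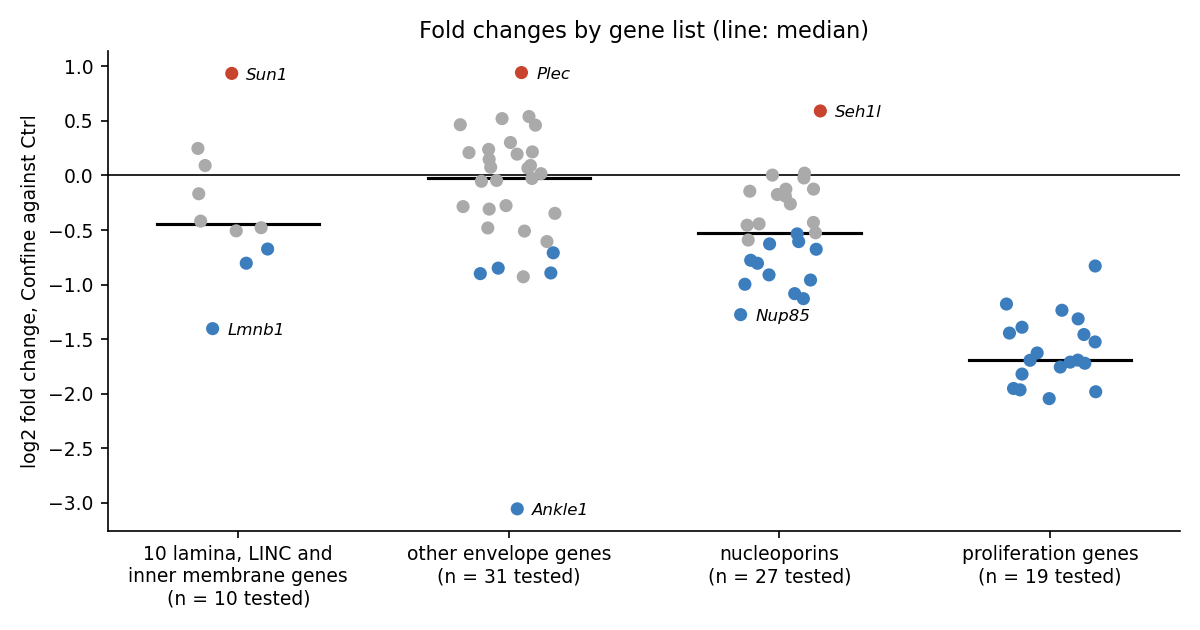
Log2 fold change of Confine against Ctrl (vertical axis) of every tested gene in 4 lists, with the list median as a line; blue marks a decrease and red an increase at an adjusted p under 0.05, and gray genes did not pass. The median is −0.45 for the 10 genes, −0.03 for 31 other envelope genes, −0.53 for 27 nucleoporins and −1.69 for 19 proliferation genes.

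Genes of dividing cells were compared between the groups as a further list. All 19 proliferation genes listed passed as lower in Confine, against 10.2% of all tested genes. This list was chosen with earlier results of these data known. Its median log2 fold change was −1.69 (range −2.04 to −0.83), against −0.0021 over all tested genes. The summed level was 3315 to 3931 CPM in Ctrl against 1129 and 1365 CPM in Confine. Mki67, a marker of cycling cells, was at 84.7, 96.7 and 62.0 CPM in Ctrl and at 23.6 and 32.8 CPM in Confine (log2 fold change −1.53, SE 0.23, edgeR adjusted p = 6.13e-05). Top2a (−1.24), Cdk1 (−1.31) and Pcna (−0.83) fell as well. The part of proliferation in the differences of Lmnb1, Lmnb2, Lbr, Tmpo and Vrk1 was not tested.

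**Figure D5:**
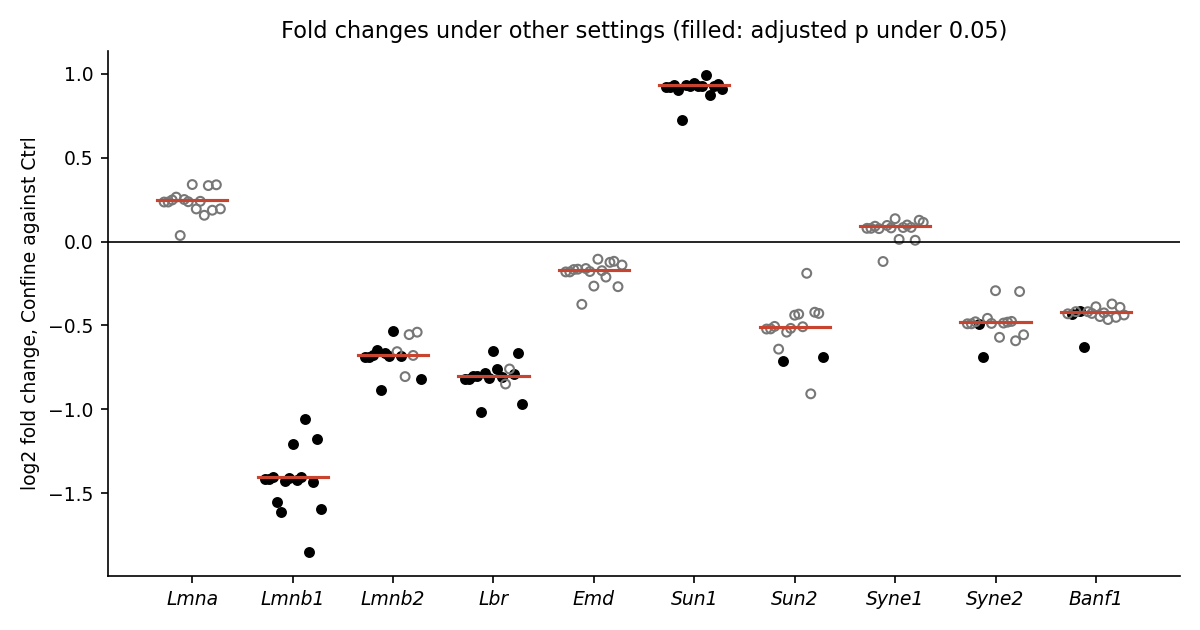
Log2 fold change of each of the 10 genes (vertical axis) in 15 other fits (points, filled where the adjusted p is under 0.05), with the value reported as a red line. All 15 points are filled for Lmnb1 (−1.85 to −1.06) and Sun1 (0.73 to 1.00), 13 for Lbr, 10 for Lmnb2 and none for Lmna, Emd and Syne1.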

How the data were processed

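Polyadenylated RNA of MEF was sequenced by the authors as libraries that keep the strand. The authors deposited raw counts per gene, without normalization, in 6 columns. Per the labels' processing notes the tools were Trim Galore 0.6.10, HISAT2 2.1.0, SAMtools 1.5 and featureCounts on mm10. The annotation and the strand setting are not given in the sources used here, and both can move reads between overlapping genes. Columns not used numbered 0.

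Names, positions and exon lengths came from GENCODE M21 (GRCm38), which holds 55154 of the 55335 identifiers, 54587 of them in the same version. Genes were kept by filterByExpr, normalised by TMM (factors 1.04, 1.083 and 1.056 in Ctrl, 0.910 and 0.924 in Confine) and tested with edgeR 4.0.16 (R 4.3.3). The replicate number was no term of this fit, which had 3 residual degrees of freedom and 14.8 prior ones in the median gene. A gene passed at a Benjamini-Hochberg adjusted p under 0.05. SDs are those of normalised CPM. Ratios were tested with exact two-sided permutation over all arrangements, and scipy 1.17.1 was used for the 95% intervals. Transcript copies were searched with blastn 2.17.0. P-values rest on the spread between these libraries, which may be technical. For edgeR, most of the variance of a typical gene is borrowed from other genes, as the prior degrees of freedom show. Floors cover counting error only.

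The genes, lists and tests were chosen with earlier results of these data known. Named were all 10 genes, up to 6 envelope genes and 4 nucleoporins in each direction with the largest absolute log2 fold change among those that passed with a mean of at least 50 counts, and Mki67, Top2a, Cdk1 and Pcna. Other genes that did not pass, markers and genes that share sequence were named after their values were seen. Nup58 was matched through its synonym Nupl1. On counts simulated for 15881 genes in 3 against 2 libraries, 35 of 67 genes changed by 2-fold and 2 of 67 changed by 1.5-fold were recovered, and 10 of 113 calls were false. The alternatives were DESeq2 1.42.0, limma-voom in limma 3.58.1, other normalizations, filters and cutoffs, a replicate block, the identical columns counted as 2 samples, and leaving out each library.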

Additional observations from a re-analysis of the deposited data

How the results depend on the processing

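In 15 other fits, the log2 fold changes of the 10 genes kept direction and side of the threshold in 135 cases. Lbr lost its call in 2 and Lmnb2 in 5, Banf1 gained one in 3, Sun2 in 2 and Syne2 in 2, and Syne1 reversed with library size alone (−0.12, adjusted p = 0.675). Library size alone moved the median of all genes to −0.21 and the calls over all genes from 2035 higher and 1619 lower to 1444 and 2805; the 10 genes then had 6 lower, the other envelope genes 9 lower and the nucleoporins 0 higher. Counting the identical columns as 2 samples gave 5 of the 10 lower, 2 envelope genes higher and 8 lower, and 2456 of all genes lower. With an absolute log2 fold change above 1.5 there were 0 of the 10 in either direction, 0 higher and 1 lower envelope gene, 0 nucleoporins in either direction, 12 lower proliferation genes and 777 higher and 494 lower genes in all.

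Deviations of same-numbered libraries correlated at −0.0913 with the repeated library as number 2 and at 0.0770 as number 1. Each value rests on a single difference per group, so whether the replicate numbers pair the libraries cannot be decided. With the replicate block (1 residual degree of freedom), 1448 genes were higher and 1080 lower as number 2, with 3 envelope genes lower and 0 nucleoporins higher and 6 lower, and 2640 higher and 2293 lower as number 1, with 2 envelope genes higher and 9 lower. Of the 10 genes, Lmnb2 alone changed its call under the block.

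Leaving out each library in turn gave 1 to 4 of the 10 lower, 0 to 1 envelope genes higher and 2 to 9 lower, 0 to 1 nucleoporins higher and 3 to 15 lower, and 1196 to 2411 genes higher and 850 to 2015 lower in all. Without a Confine library, the lone one is assumed to vary like Ctrl. No ratio changed direction under any alternative. With 5 libraries, 2 of 67 changes of 1.5-fold were recovered in simulated counts. That simulation gave 113 calls with the same dispersion for all genes, against 2035 higher and 1619 lower genes in the data. Its share need not hold for these data, and genes that did not pass are not shown to be equal.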

Other observations

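Nucleoporins are the proteins of the nuclear pore. Of 29 listed, 27 were tested, and 1 was higher and 12 were lower in Confine, with a median log2 fold change of −0.53 against −0.0021 over all tested genes, of which 12.8% were higher and 10.2% lower. Nup85, of the outer ring complex of the pore, was at 123, 85.1 and 91.1 CPM in Ctrl and at 40.7 and 41.8 CPM in Confine (log2 fold change −1.28, SE 0.20, edgeR adjusted p = 0.000139). Nup107, of the same complex, was at 37.6, 22.7 and 32.9 against 16.1 and 15.0 CPM (−0.997, SE 0.22, edgeR adjusted p = 0.00271). Ndc1, a membrane protein that anchors the pore, was at 39.8, 32.8 and 26.5 against 15.0 and 15.2 CPM (−1.13, SE 0.21, edgeR adjusted p = 0.00056), and Nup35 was at 102, 68.9 and 85.1 against 46.3 and 34.1 CPM (−1.08, SE 0.21, edgeR adjusted p = 0.000972). In each of these genes the Confine libraries lie below all Ctrl libraries, as they do for 23.6% of all tested genes. These genes were named as the largest decreases that passed, so this separation is no separate result.

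Seh1l, a further member of the outer ring complex that also belongs to a regulator of amino acid sensing, was the nucleoporin that rose, from 64.4, 63.2 and 58.9 CPM in Ctrl to 87.5 and 99.7 CPM in Confine (log2 fold change 0.59, SE 0.18, edgeR adjusted p = 0.0201). It passed without Ctrl replicate 2 and in no other fit that left out a library. The number of nucleoporins that were lower was 6 without Confine replicate 2 and 3 without Confine replicate 3, against 15 without Ctrl replicate 3.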
